A study of Bos taurus and Bos grunniens x Bos taurus and Bos grunniens with 18 samples.

Results

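The cattle-yak set is a group of circular RNAs (circRNAs) that were read in every cattle-yak testis library and not in every library of either parent species. A circRNA entered it with at least 2 reads in all 3 cattle-yak libraries, provided that it did not reach 2 reads in all 3 cattle libraries or in all 3 yak libraries. These reads chose the set, so all counts and calls drawn from them below are a description and no test of the set. It holds 1225 of the 5730 circRNAs of the deposited table, or 21.4%, and 32.4% of the 3776 circRNAs that reached 2 reads in all 3 cattle-yak libraries. Testes came from 3 cattle-yaks, 3 cattle and 3 yaks of 4 years kept by the same cooperative, with no other treatment named than castration. Each library comes from 1 animal, so the spread within a group is between animals. The labels name cattle-yaks as Bos grunniens x Bos taurus and do not say which species was the dam. The table names each circRNA by a number, and its gene, position and sequence are not analysed here.

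A circRNA is a closed loop that forms when the end of an exon is spliced back to the start of the same or an earlier exon. It has no free ends, which makes it resistant to exonucleases and longer lived than most linear transcripts of the same gene. Reads of a circRNA are usually recognised by crossing the back-splice junction, but the sources used here name no caller for the deposited counts. Mammalian testis is known as a tissue rich in circRNAs, and spermatids carry many of them. Male cattle-yaks are sterile because spermatogenesis stops early, while females are fertile.

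The libraries differed in depth and in 1 further way that bears on membership. CircRNA table reads summed to 50533, 60791 and 65174 in the cattle-yak libraries, against 54099, 50541 and 54317 in the cattle libraries and 52471, 44469 and 48286 in the yak libraries. The table holds 0 values of 1, so a 0 in it may stand for 1 read as well as for none. Every row of it reached 2 reads in all libraries of some group, and circRNAs that did so in no group are not in it. Cattle library 2 had reads in only 2 of the last 292 rows of the table, from ID number 29792 to 31671. In the same rows the cattle-yak libraries had reads in 264 to 270 circRNAs, cattle libraries 1 and 3 in 190 and 184, and the yak libraries in 192 to 202. No other library had a run of 50 or more rows at 0, and the longest run elsewhere was of 14 rows. No circRNA in this stretch apart from those 2 could therefore be read in all 3 cattle libraries. The stretch holds 142 members of the set, and the main descriptions are given with and without it.

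The working name of these circRNAs, present only in cattle-yak testis, held for a minority of them. Only 151 members (12.3%) were at 0 reads in all 6 parent libraries, 26 of them in the stretch and 125 of the 1083 members outside it. The other 1074 (87.7%) had reads in at least 1 parent library. Reads came from both parents for 610 members, from cattle alone for 267 and from yak alone for 197, and outside the stretch for 544, 242 and 172. Counted by libraries, 274 members had reads in 1 parent library, 309 in 2, 268 in 3 and 223 in 4, the most that the rule allows. Those 223 were read in 2 of 3 cattle libraries and in 2 of 3 yak libraries, so that a single library of each parent kept them in the set, and 197 of them lay outside the stretch.

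**Figure D1:**
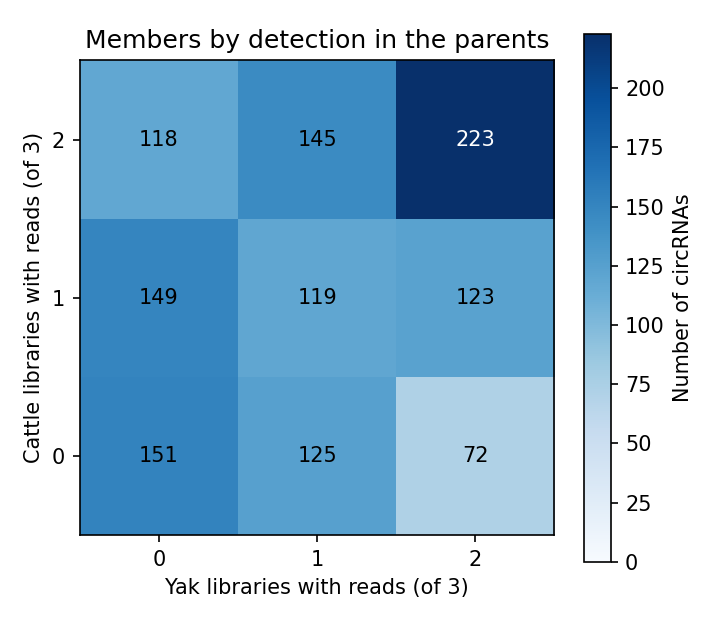
Each cell gives the number of members of the cattle-yak set by how many cattle libraries (vertical axis) and yak libraries (horizontal axis) had reads for them. The corner with reads in 2 libraries of each parent holds 223 circRNAs, more than the corner with no reads in either parent, which holds 151.

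The members together took a larger share of the reads in cattle-yak than in the parents, which the rule fixed. They held 13.8, 13.9 and 14.4% of table reads in the cattle-yak libraries, 4.28, 3.30 and 4.18% in the cattle libraries and 2.72, 4.24 and 3.43% in the yak libraries. Every cattle-yak library lay above every parent library. Outside the stretch the shares were 11.0, 10.1 and 10.8% in cattle-yak, 3.02, 3.30 and 2.84% in cattle and 2.41, 3.32 and 3.02% in yak. If each 0 stood for 1 read, the shares would be at most 5.66% in a cattle library and 6.05% in a yak library. A single parent library had reads for between 429 and 479 members in cattle and between 386 and 421 in yak.

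**Figure D2:**
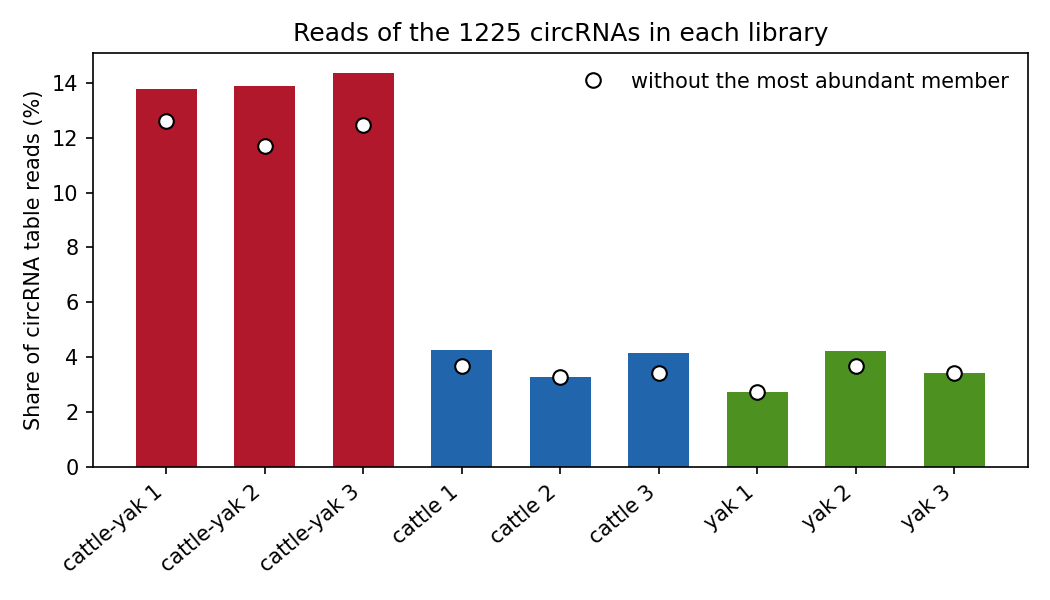
Bars show the percentage of each library's circRNA table reads that fell on the 1225 members, and open circles the same without the most abundant member. Cattle-yak libraries lie between 13.8 and 14.4% and parent libraries between 2.72 and 4.28%.

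Most members were rare even in cattle-yak. The mean over the 3 cattle-yak libraries had a median of 4.67 reads across members, with 3.67 and 6.67 reads as the quartiles, and outside the stretch 4.67 with 3.33 and 6.33. The lowest cattle-yak library had exactly 2 reads for 498 members and 2 or 3 reads for 794 (64.8%), while only 44 had at least 10 reads in every cattle-yak library. The circRNAs that cattle-yak shared with cattle but not yak had a median of 7.33 reads, those shared with yak but not cattle 7.67 reads, and those read in all 9 libraries 12.3 reads. Of the class shared with yak 110 circRNAs lie in the stretch, with a median of 13.7 reads, and outside the stretch its median was 7.0 reads. Means of 10 reads or more were reached by 8.08% of members, against 30.8, 34.8 and 60.4% in those 3 classes. Between the cattle-yak animals the highest TPM (reads scaled to a fixed library total, here without a length term) was at the median 2.08 times the lowest for members, and 1.76 times for circRNAs read in all 9 libraries. Medians of 4.67 and 12.3 reads set these classes apart, and the part of low counts in that ratio was not tested. The TPM of members was highest in cattle-yak library 1 for 443, in library 2 for 367 and in library 3 for 415. The rule required reads in all 3, and 2 reads stand for 39.6 TPM in library 1 and 30.7 TPM in library 3. This split therefore depends on depth and does not measure the weight of an animal.

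A few members carried many reads. novel_circ_0031233 had 585, 1323 and 1229 reads in the cattle-yak libraries, 326, 0 and 401 in the cattle libraries and 0, 239 and 0 in the yak libraries. It averaged 17399 ± 5247 TPM in cattle-yak, 4470 ± 3930 TPM in cattle and 1792 ± 3103 TPM in yak (SD, n = 3 each) and made up 12.7% of all cattle-yak reads of the set. It lies in the stretch, so its place in the set rests on the 0 of cattle library 2: without that library the 326 and 401 reads of the others make it complete in cattle, and it is no longer a member.

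novel_circ_0001446, outside the stretch, had 161, 128 and 173 reads in cattle-yak, 0, 66 and 90 in cattle and 0, 67 and 73 in yak. Its mean was 2649 ± 540 TPM in cattle-yak, 988 ± 873 TPM in cattle and 1006 ± 871 TPM in yak (SD, n = 3 each). novel_circ_0019914 had 51, 66 and 93 reads in cattle-yak, 22, 23 and 0 in cattle and 0, 40 and 21 in yak. In both, every cattle-yak library was above every parent library, yet the parents held them at a substantial level in 2 of 3 animals.

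novel_circ_0001965 was read in the hybrid and in cattle but not in yak, with 39, 58 and 59 reads in cattle-yak, 26, 20 and 0 in cattle and 0 in all 3 yak libraries. novel_circ_0016089 had 34, 56 and 40 reads in cattle-yak, 29, 0 and 14 in cattle and 0, 19 and 26 in yak. novel_circ_0023361 was low in both parents, with 20, 54 and 31 reads in cattle-yak, 0, 10 and 0 in cattle and 0, 4 and 4 in yak. Its highest parent library, at 10 reads, was below that of the other circRNAs of this paragraph.

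The remaining members among the 15 with the highest mean TPM held between 15 and 37 reads in each cattle-yak library, apart from novel_circ_0022263, described next. In 14 of the 15 a library at 0 stood beside a library with reads in the same parent. Of the 15, 6 lie in the stretch, and 8 leave the set when cattle library 2 is left out. novel_circ_0031153, within the stretch, had 34, 37 and 32 reads in cattle-yak, 2, 0 and 3 in cattle and 0, 13 and 3 in yak.

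The most abundant member that was at 0 in all 6 parent libraries was novel_circ_0022263. It had 46, 47 and 83 reads in the cattle-yak libraries, or 986 ± 259 TPM (SD, n = 3), and lies outside the stretch. novel_circ_0016639 followed with 20, 17 and 23 reads and novel_circ_0012105 with 16, 9 and 23 reads, both outside the stretch. These 3 were the only ones of the 151 with a mean of 10 reads or more in cattle-yak.

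The next was novel_circ_0016681, with 9, 7 and 13 reads in the cattle-yak libraries. novel_circ_0029136 had 5, 9 and 14 reads there and novel_circ_0005782 had 13, 8 and 4 reads. The other 4 of the 10 most abundant, novel_circ_0031093, novel_circ_0029925, novel_circ_0030511 and novel_circ_0030487, lie in the stretch, so that cattle library 2 says little about their absence. Among all 151 the median of the mean cattle-yak reads was 3.67, and 89 (58.9%) never exceeded 5 reads in any cattle-yak library. At this depth a low level in the parents was not detectable for them, and no fold is given against a 0.

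**Figure D3:**
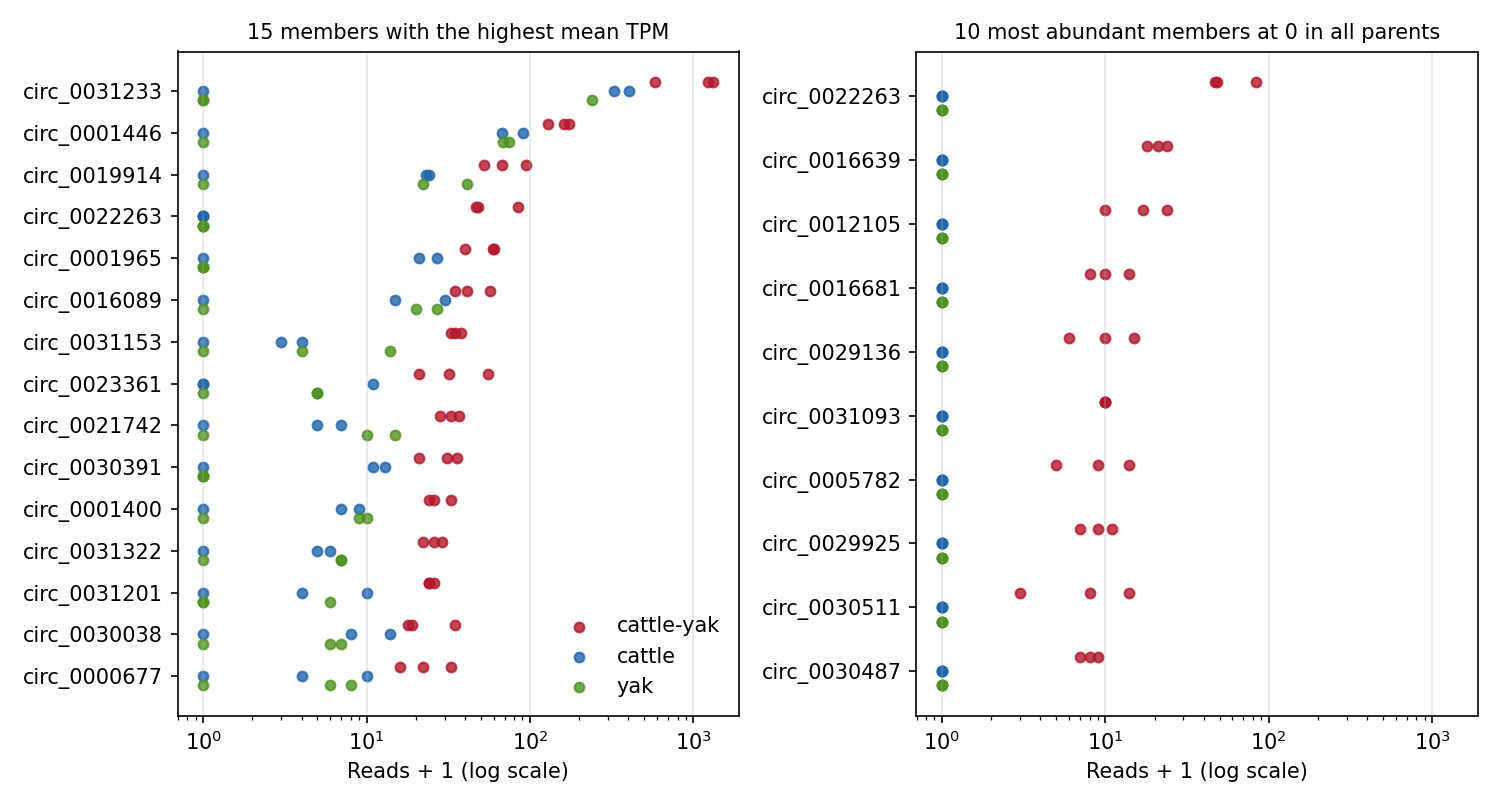
Points are reads plus 1 (log axis) in each of the 9 libraries, coloured by group, for the 15 members with the highest mean TPM in cattle-yak (left) and the 10 most abundant members at 0 in all parent libraries (right). On the left, 14 of 15 circRNAs have a parent library at 0 beside parent libraries with reads, while on the right novel_circ_0022263 stands alone at 46 to 83 cattle-yak reads.

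Zeros beside well-filled libraries of the same parent were looked at over the set. A library at 0 while the other 2 libraries of that parent each held at least 5 reads occurred for 107 members (8.74%), and for 88 members outside the stretch. With at least 10 reads in both other libraries it occurred for 14 members, 10 of them outside the stretch. The rule selects such patterns, so the whole table gives the background, within rows complete in some group. Where 2 libraries of a group each had at least 10 reads, the third was at 0 in 0.382 to 1.08% of circRNAs for the cattle-yak libraries. It was at 0 in 0.643% for cattle library 1, 4.93% for cattle library 2 and 0.863% for cattle library 3, and in 0.726 to 1.11% for the yak libraries. Outside the stretch cattle library 2 was at 0 for 11 of 935 such circRNAs.

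An absence can be checked in a parent library that was not used to call it. Among circRNAs with at least 2 reads in all 3 cattle-yak libraries and 0 in 5 of the 6 parent libraries, the sixth library had reads for 20.5 to 28.1%. The share was 21.4, 24.5 and 28.1% when cattle library 1, 2 or 3 was the one set aside, and 20.5, 22.2 and 22.2% for yak library 1, 2 or 3, each over 190 to 210 circRNAs. Reads found there were few, with a median of 2 or 3 and a maximum of 20. Of all 3776 circRNAs complete in cattle-yak, 70.7 to 73.8% had reads in a given parent library. Outside the stretch the shares were 20.9 to 29.8%, against 71.4 to 76.0%. A 0 in 5 parent animals was thus a 0 in the remaining animal for most but not all of these circRNAs, where a 0 may stand for 1 read. The shares compare unlike read levels. CircRNAs at 0 in all 6 parent libraries had a median of 3.67 cattle-yak reads, and those read in all 9 libraries 12.3. The part of read level in the difference was not tested.

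ID numbers were not used by the rule, and members were unevenly spread along them. The sources used here do not say what order the numbers follow, and the stretch was singled out after the values were seen. In the first 29 bins of 1000 numbers, members made up between 14.2 and 28.2% of the rows, and in the last 2 bins 46.9 and 54.6%. Within the stretch 142 of 292 circRNAs (48.6%) were members, against 1083 of 5438 (19.9%) elsewhere. Without cattle library 2 the rule left 86 of the 142 in the set, or 29.5% of the stretch, against 17.6% of the other rows. The denominators are unlike, since all 804 rows complete in cattle alone are among the other rows. Leaving cattle library 2 out of the rule does not restore stretch rows that its zeros may have kept out of the table.

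Reads of the stretch as a whole, members or not, took 8.89, 9.37 and 9.31% of table reads in the cattle-yak libraries. They took 5.14 and 4.81% in cattle libraries 1 and 3, 0.0317% in cattle library 2, and 4.12, 5.08 and 5.10% in the yak libraries. Without novel_circ_0031233 the shares were 7.73, 7.20 and 7.42% in cattle-yak, 4.54 and 4.07% in cattle libraries 1 and 3 and 4.12, 4.54 and 5.10% in yak. Among rows kept in the table, cattle-yak stayed above both parents in every library, with or without its most abundant circRNA. Only 2 rows of the stretch were complete in cattle, and all 804 rows complete in cattle alone lie outside it. Entry to the table thus differed there between groups, which bears on these shares. No test was run on a stretch chosen from the data. The part that table entry, unequal depth or cell makeup has in it was not tested.

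**Figure D4:**
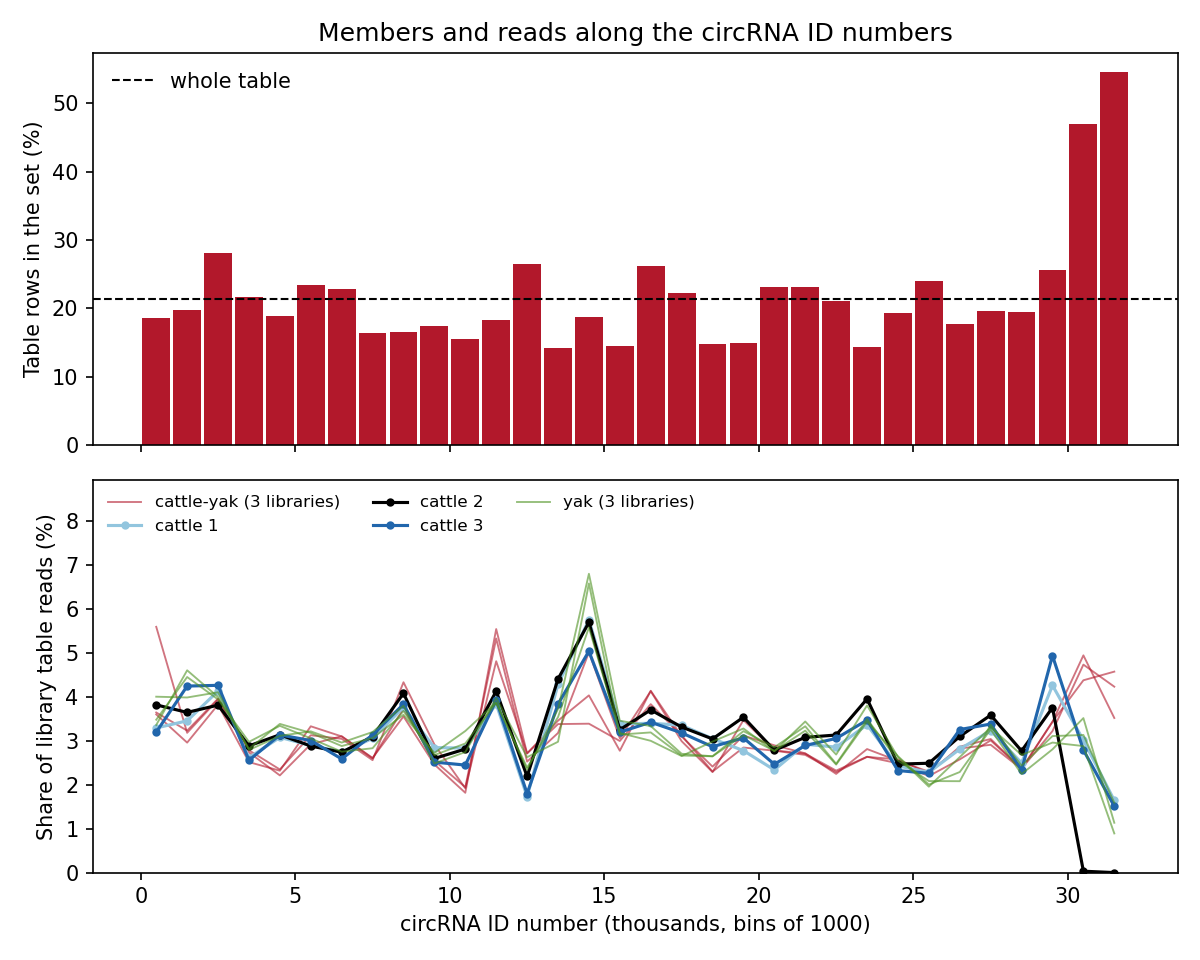
The upper panel shows the percentage of table rows that are members in bins of 1000 circRNA ID numbers, with the whole-table share of 21.4% as a dashed line. The lower panel shows each library's share of table reads in the same bins, where cattle library 2 drops to 0.0317% and 0% in the last 2 bins while the other libraries keep reads there.

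At the threshold the set shades into its neighbours. Just inside were circRNAs such as novel_circ_0009258 and novel_circ_0009629, with 2, 2 and 2 reads in cattle-yak and 0 in all parent libraries. Just outside was novel_circ_0015330, with 2, 2 and 2 reads in cattle-yak, 3, 2 and 2 in cattle and 0 in yak. In all, 331 circRNAs missed the set because a single parent was complete with exactly 2 reads in its lowest library. On the inner side, 458 members had reads in 2 of 3 libraries of exactly 1 parent.

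Not every member was higher in cattle-yak. The mean TPM in cattle exceeded that in cattle-yak for 39 members, and the mean in yak did so for 38, with 8 members in both counts (32, 35 and 7 outside the stretch). The largest of those 8, chosen after its values were seen, was novel_circ_0021427, with 12, 7 and 10 reads in cattle-yak, 42, 0 and 26 in cattle and 0, 15 and 28 in yak. Its single zero in each parent, beside 15 to 42 reads in the others, placed it in the set although 4 parent libraries were above all 3 cattle-yak libraries.

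Counts were also fitted for the 3730 circRNAs that reached 5 reads in 3 or more libraries, using the quasi-likelihood test of edgeR. Of the 1225 members 435 passed that filter, and many needed their cattle-yak libraries to do so. With 1 cattle-yak library left out 235 to 274 members passed, and with 1 parent library left out 403 to 422. With an adjusted p under 0.05 as a call, 77 were higher than in cattle and 87 higher than in yak, 30 in both, and 0 were lower, with 0 lower at an unadjusted p under 0.05 and 0 by DESeq2. DESeq2 called 74 and 88 members higher. Over all circRNAs tested 9.65% were called higher against cattle and 10.3% against yak, and 18.8 and 17.3% lower. The rule asked for reads in every cattle-yak library and not in every library of either parent, which favours calls higher in cattle-yak. The counts therefore only show how many chosen circRNAs were well enough measured to pass. In the stretch 16 of 65 tested members were called against cattle and 17 against yak, and outside it 61 and 70 of 370. Leaving out any 1 cattle-yak library left 13 to 15 calls against cattle and 11 to 17 against yak, and leaving out yak library 1 left 35 against yak.

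The fit also gave the contrast of yak with cattle. The rule used the same cattle and yak reads, since it removed every circRNA complete in either parent, so this contrast is likewise a description with no p given for a member. Of the 435 members that passed the filter, 2 were called higher and 3 lower in yak by edgeR, where 4.93% of all circRNAs tested were called higher, 6.92% lower and 11.8% in either direction. At an unadjusted p under 0.05 there were 65 members, with no share over all circRNAs to set beside them. DESeq2 called 12 members and 443 of all circRNAs tested. With 1 library left out there were 8 without cattle library 2, 4 without cattle library 1, 2 without cattle library 3, 1 without yak library 1 and 3 without any of the others. Over all circRNAs those fits called 180 to 406. The 5 were chosen for description after their values were seen, and each had 0 reads in all libraries of a parent.

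novel_circ_0028391 was read in yak and not in cattle, with 21, 38 and 0 reads in yak against 0, 0 and 0 in cattle, while cattle-yak had 16, 24 and 15 reads. novel_circ_0016811 had 16, 0 and 17 reads in yak against 0, 0 and 0 in cattle, and 5, 11 and 6 in cattle-yak. Both reached 5 reads in 2 yak libraries and in no cattle library. They passed the filter only together with their cattle-yak libraries. The opposite pattern, reads in cattle and none in yak, held for novel_circ_0001965, whose reads are given above.

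novel_circ_0030391 and novel_circ_0030908 lie in the stretch and had no reads in yak. novel_circ_0030391 had 0, 0 and 0 reads in yak, 12, 0 and 10 in cattle and 20, 30 and 35 in cattle-yak. novel_circ_0030908 had 0, 0 and 0 reads in yak, 15, 0 and 8 in cattle and 3, 5 and 5 in cattle-yak. In both, the cattle library at 0 is library 2.

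The same rule applied to each parent gives a scale for the size of the set. Cattle-yak alone was complete for 1225 circRNAs, cattle alone for 804 (14.0% of the table) and yak alone for 618 (10.8%). Of these, 151 (12.3%) for cattle-yak, 163 (20.3%) for cattle and 91 (14.7%) for yak were at 0 in the 6 libraries of the other groups. So the set is larger than either parent set, but its share of circRNAs seen nowhere else is the lowest of the 3, a difference that was not tested. A cut fixed in reads is met more easily in a deeper library. Cattle-yak libraries held 50533, 60791 and 65174 table reads, and the deepest parent library 54317. The part of depth in the sizes of these sets was not tested. The median of the mean reads was 4.67 for cattle-yak, 4.67 for cattle and 4.33 for yak. Outside the stretch the sets held 1083 circRNAs for cattle-yak, 804 for cattle and 580 for yak, of which 125 (11.5%), 163 (20.3%) and 85 (14.7%) were at 0 elsewhere.

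Messenger RNA of the same libraries gives the levels of cell type markers beside the circRNA counts. Of 28 tested spermatid genes 28 were lower in cattle-yak than in either parent (limma on log2(FPKM + 1), adjusted p under 0.05), where 30.0% of all genes were called lower against cattle and 30.7% against yak. Their summed level was 64.6 to 207 FPKM in cattle-yak, 20210 to 32540 FPKM in cattle and 24620 to 27640 FPKM in yak. Of 20 Sertoli cell genes 19 were higher against each parent, where 54.4% of all genes were called higher against cattle and 55.3% against yak. Their summed level was 2653 to 3055 FPKM in cattle-yak, 637 to 800 FPKM in cattle and 606 to 877 FPKM in yak.

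Counts for the other lists are to be read beside all genes, of which 54.4% were higher and 30.0% lower against cattle. Against yak these shares were 55.3 and 30.7%. Of 13 spermatogonial genes 12 were higher and 1 lower against each parent, and of 15 Leydig cell genes 14 and 1. Of 26 meiotic prophase genes 6 were higher and 10 lower, and 3 and 14 against cattle after median-ratio scaling. Late spermatocyte genes were mostly lower, with 9 of 11 against each parent. Extracellular matrix genes rose in 26 of 28 against cattle and 27 against yak, and smooth muscle genes of the tubule in 10 and 9 of 10. Of 10 endothelial genes 8 were higher and 1 lower relative to cattle, and 7 and 2 relative to yak. Of 13 macrophage genes 6 were higher and 3 lower relative to cattle, a smaller share higher than that of all genes, and 10 and 3 relative to yak. Of 8 lymphocyte genes 4 were higher and 0 lower relative to cattle, again a smaller share higher than that of all genes. Relative to yak 6 were higher and 1 lower. Of 3 epididymis and rete genes 2 were higher and 0 lower against each parent. After median-ratio scaling 1 lymphocyte gene was higher against cattle, and of the epididymis and rete genes 1 was higher and 1 lower. Over all genes 39.4% were higher and 40.5% lower against cattle after that scaling. Of 8 blood genes 2 were tested, and both were lower. In bulk tissue, fewer cells of a type and less RNA per cell cannot be told apart, and the part of cell makeup in the cattle-yak set was not tested.

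Genes that act on circRNAs, as splicing regulators of the back-splice or as factors of RNA export, modification and decay, were given as a list of 41, of which 40 were tested. In the comparison with cattle 27 were higher and 4 lower, and in that with yak 27 and 3 (limma), where 54.4 and 55.3% of all genes were higher, and 30.0 and 30.7% lower. This split depended on the scaling of the libraries: median-ratio scaling, which moved the median log2 change of all genes against cattle to 0.02 where it had been 0.50, left 17 higher and 13 lower relative to cattle, and 17 and 12 relative to yak. All genes were then 39.4% higher and 40.5% lower relative to cattle, and 40.4 and 42.0% relative to yak.

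The 3 with the highest mean over all 9 libraries were SRSF3, HNRNPM and ILF2. SRSF3, an SR splicing factor, had 214, 228 and 240 FPKM in cattle-yak, 175, 186 and 173 FPKM in cattle and 158, 161 and 182 FPKM in yak. All 3 cattle-yak libraries were above the parents, by 0.35 ± 0.10 on the log2 scale against cattle (SE, limma, adjusted p = 0.00805), but after median-ratio scaling the change was −0.22 and no call. HNRNPM, an hnRNP splicing factor, was at 125 ± 6.63 FPKM in cattle-yak, 115 ± 12.2 in cattle and 120 ± 12.5 in yak (SD, n = 3 each). ILF2, an RNA-binding protein, was at 108 ± 10.4 FPKM in cattle-yak, 99.5 ± 14.3 in cattle and 111 ± 9.72 in yak (SD, n = 3 each). Neither was called, and both were called lower against both parents after median-ratio scaling.

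In cattle-yak alone the second highest was SRSF1, an SR splicing factor, chosen after its values were seen. It had 126, 129 and 137 FPKM in cattle-yak, 63.7, 61.9 and 58.4 FPKM in cattle and 56.0, 63.4 and 64.3 FPKM in yak. It rose by 1.08 ± 0.09 on the log2 scale against each parent (SE, limma, adjusted p = 2.67e-06 against cattle) and by 0.52 against cattle and 0.45 against yak after median-ratio scaling, where it was still called.

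Among the others, likewise chosen after their values were seen, MBNL3, a muscleblind splicing factor, had 76.6, 68.4 and 72.9 FPKM in cattle-yak. It had 14.8, 15.5 and 10.6 FPKM in cattle and 7.59, 13.5 and 13.9 FPKM in yak. DIS3, a nuclease of the exosome, had 12.7, 11.4 and 9.50 FPKM in cattle-yak, 34.0, 33.6 and 38.2 FPKM in cattle and 38.3, 39.0 and 45.5 FPKM in yak. UPF1, a helicase of nonsense-mediated decay, was lower against both parents as well, and ESRP2, an epithelial splicing factor, against cattle. MBNL3 rose by 2.35 ± 0.21 on the log2 scale against cattle (SE, limma, adjusted p = 3.25e-06), and DIS3 fell by 1.58 ± 0.12 (adjusted p = 1.35e-06), in the same directions under median-ratio scaling.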

How the data were processed

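Directional libraries depleted of ribosomal RNA were sequenced as paired reads of 125 nt, per the labels' protocols. The submitters' processing notes name the build UMD3.1 and, without a role, Bowtie, Cufflinks, HISAT2 2.0.5, Trimmomatic and StringTie 1.3.4. For the circRNA caller, the sources used here give no name. The circRNA read counts were deposited by the authors per library, and their deposited TPM columns are those reads scaled to a fixed total over the table, with no length term. The FPKM values were deposited by the authors per transcript and summed here per gene. 3 unnamed columns of group means were not used.

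The members and lists were chosen with earlier results of these data known. Libraries were grouped by title. Counts were fitted in edgeR 4.0.16 (R 4.3.3) with TMM factors over circRNAs that reached 5 reads in 3 or more libraries. FPKM of genes reaching 1 in at least 3 libraries were fitted as log2(FPKM + 1) in limma 3.58.1 with a trend. Group was the only term, over all 9 libraries, and the Benjamini-Hochberg method adjusted two-sided p over all features tested. Both fits were tested on simulated data. DESeq2 1.42.0, other filters, scalings and pseudocounts, a replicate block and each library left out were tried. Named circRNAs are the 15 with the highest mean TPM in cattle-yak, the 10 most abundant at 0 in both parents, and members at the threshold; others are marked in the text as picked with their values in view. For the circRNA factor list the 3 genes with the highest mean over all libraries are named, and not every gene called is reported here. Comparisons of host gene mRNA, planned for this set, were not made because the table pairs no circRNA with a gene, and lists planned for hosts were not used. Replicate numbers come from the titles and were not taken to pair animals.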

Additional observations from a re-analysis of the deposited data

How the results depend on the processing

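Shallow counts, a median of 4.67 cattle-yak reads, limit what the set can show. It held 708 circRNAs with at least 5 reads as the threshold, 151 with 0 reads required in all 6 parent libraries, and 125 with both that and the stretch left out (the last chosen after seeing the data), against 1225. Thresholds of 3 reads (1004) and of a common TPM (959) and leaving out the stretch (1083) moved it by less than 1.5 times. Leaving out 1 library gave 1044 to 1225 members, the lowest counts being 1044 without cattle library 2 and 1049 without cattle library 3. Leaving out a cattle-yak library cannot change the count, because every row is complete in some group.

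With no filter on low counts edgeR called 1743 circRNAs against cattle (1060 with the filter), 1676 against yak (1033) and 807 between yak and cattle (442). Members called were then 370 higher against cattle, 412 higher against yak and 9 between yak and cattle. With the filter, DESeq2 called 12 members and 443 circRNAs in all between yak and cattle. With a library left out the calls numbered 732 to 1006 against cattle, 663 to 1050 against yak and 180 to 406 between yak and cattle. Members called higher were 13 to 77 against cattle and 11 to 93 against yak, and 1 to 8 between yak and cattle. The lowest counts of members higher came with a cattle-yak library left out, when 235 to 274 members passed the filter in place of 435. With a parent library left out 403 to 422 passed. The filter counts libraries with enough reads, and many members passed it only with all their cattle-yak libraries, so fewer could be called. How much of the drop in calls came through the filter was not tested. Without yak library 1, 663 circRNAs and 35 members higher were called against yak.

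Samples with the same replicate number did not deviate together in every pair: correlations of their deviations were −0.03 to 0.04 for circRNAs and −0.17 to 0.23 for mRNA, and the best match had the same number in 7 of 18 and 2 of 18 comparisons. The replicate block gave 22 members higher against cattle, 28 against yak and 2 called between yak and cattle. Over all circRNAs it called 739 against cattle, 756 against yak and 239 between yak and cattle. Median-ratio scaling of FPKM left 17 circRNA factors higher and 13 lower relative to cattle, and 17 and 12 relative to yak. With a library left out, 26 to 28 were called higher and 3 to 5 lower relative to cattle, and 26 to 27 and 3 to 4 relative to yak. The alternatives for host gene mRNA were not run, since the table pairs no circRNA with a gene.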
